A study of Drosophila melanogaster with 12 samples.

Results

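The actin and tubulin genes comprised 10 genes chosen by name, 4 actins and 6 tubulins, of 13968 protein-coding genes in the Release 6 (dm6) gene models of *Drosophila melanogaster*. The rule for the choice uses no measured value, but the genes and lists were chosen with earlier results of these data known. On textbook knowledge 5 of them are ubiquitous (*Act5C*, *Act42A*, *alphaTub84B*, *alphaTub84D* and *betaTub56D*) and 5 are tissue-restricted (*Act57B*, *Act79B*, *betaTub60D*, *alphaTub85E* and *betaTub85D*). They were described by the percentage of the gene span, from gene start to gene end, that lay inside regions called for elongating RNA Polymerase II (Pol II), here termed coverage, and by the positions of those regions.

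Chromatin immunoprecipitation followed by sequencing was carried out in Kc167 cells, a female embryonic line of hemocyte (insect blood cell) origin, with an antibody to Pol II phosphorylated on serine 2 (Pol II S2). All cells were nucleofected and then collected 3 days later. Mock-treated cells received no RNA, AGO2 KD cells are labelled as an si treatment against *Ago2*, and LaminB KD cells are labelled as a ds treatment against *LaminB*, so the reagent differs between the knockdowns. Each group had 2 libraries, and nothing in the labels says whether these came from separate cultures, so differences between libraries may be technical. The question behind the AGO2 KD was how AGO2, the Argonaute protein of the siRNA pathway, bears on Pol II occupancy, and the LaminB KD, which removes a component of the nuclear lamina, served as the specificity control.

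Actin polymerises into filaments and alpha- and beta-tubulin pair to form microtubules, and in flies each protein is made from several genes with different expression patterns. *Act5C* and *Act42A* encode the cytoplasmic actins, whereas *Act57B* and *Act79B* encode actins of larval and adult muscle. *alphaTub84B* and *alphaTub84D* encode the alpha-tubulins found in most cells and *betaTub56D* the most widely used beta-tubulin. *betaTub60D* is known from mesoderm, muscle and some neural cells and as a gene that the hormone ecdysone induces in Kc cells. *betaTub85D* serves the male germ line, and *alphaTub85E* is used in the testis and a few other tissues.

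The start regions of 3 ubiquitous and 2 restricted genes are shown because the called regions described below lay over or beside these starts in the 3 ubiquitous genes, in all but 1 library of *alphaTub84D*, and were missing from these 2 restricted genes. Each runs 5′ to 3′ on the strand of the gene in the RefSeq Release 6 (dm6) genome, with the annotated start site as base 251 of 280. Capitals mark matches to GAGAG on either strand (CTCTC on the reverse), the letters of the GAGA element, and to TATAAA, the letters of a TATA box, between 40 and 16 bases before the start. The windows are chrX:5900611-5900890 on the plus strand for *Act5C*, chr3R:7086349-7086628 on the plus strand for *alphaTub84B*, chr3R:7530503-7530782 on the plus strand for *alphaTub84D*, chr3L:21984960-21985239 on the plus strand for *Act79B* and chr3R:9733221-9733500 on the minus strand for *alphaTub85E*.
Act5C: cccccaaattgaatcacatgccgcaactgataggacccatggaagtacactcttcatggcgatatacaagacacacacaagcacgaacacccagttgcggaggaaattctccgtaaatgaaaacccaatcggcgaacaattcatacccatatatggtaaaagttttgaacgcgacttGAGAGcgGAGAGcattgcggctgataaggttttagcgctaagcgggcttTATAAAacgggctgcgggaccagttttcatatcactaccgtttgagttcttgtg
alphaTub84B: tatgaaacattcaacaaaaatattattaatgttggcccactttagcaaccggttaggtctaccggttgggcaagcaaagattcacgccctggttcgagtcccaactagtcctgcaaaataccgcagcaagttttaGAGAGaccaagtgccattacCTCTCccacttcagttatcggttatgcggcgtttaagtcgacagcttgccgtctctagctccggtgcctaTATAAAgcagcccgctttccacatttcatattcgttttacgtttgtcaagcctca
alphaTub84D: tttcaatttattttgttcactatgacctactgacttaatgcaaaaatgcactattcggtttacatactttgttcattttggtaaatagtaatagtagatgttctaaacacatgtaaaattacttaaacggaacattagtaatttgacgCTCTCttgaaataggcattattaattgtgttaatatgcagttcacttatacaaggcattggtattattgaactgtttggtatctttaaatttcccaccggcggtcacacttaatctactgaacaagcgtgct
Act79B: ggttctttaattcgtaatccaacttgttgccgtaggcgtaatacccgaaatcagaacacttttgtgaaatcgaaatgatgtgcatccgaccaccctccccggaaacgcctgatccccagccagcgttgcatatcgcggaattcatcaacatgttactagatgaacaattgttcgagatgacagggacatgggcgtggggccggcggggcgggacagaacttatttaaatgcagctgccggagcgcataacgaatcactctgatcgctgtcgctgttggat
alphaTub85E: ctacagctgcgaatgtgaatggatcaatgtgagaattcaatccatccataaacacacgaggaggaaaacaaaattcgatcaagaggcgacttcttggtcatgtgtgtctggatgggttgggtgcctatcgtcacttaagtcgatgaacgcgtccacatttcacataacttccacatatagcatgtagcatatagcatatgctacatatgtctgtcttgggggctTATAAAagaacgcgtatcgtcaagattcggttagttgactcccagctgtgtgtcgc

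The same window was searched in all 13968 protein-coding genes for 4 motifs. GAGAG on either strand was present in 5 of 5 ubiquitous and 0 of 5 restricted genes, and in 28.2% of all windows. TATAAA on the gene strand, read only in the stretch named above, was present in *Act5C*, *alphaTub84B*, *betaTub56D*, *Act57B* and *alphaTub85E*, and in 7.72% of all genes, so it occurred in both classes. TATCGATA, the letters of the DNA replication-related element, was in none of the 10 and in 9.21% of all windows on either strand. TCAGT, the core of the initiator, read on the gene strand within 10 bases of the start, was in *betaTub60D* alone and in 11.7% of all genes. None of the 4 letter strings contains another, and matches to GAGAG can overlap each other. A match describes letters and says nothing of a bound factor.

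The 6 lists held between 4122 and 7957 regions, and their covered length ranged from 3.07 Mb in AGO2 KD 1 to 13.0 Mb in mock 1. Sequencing depth is unknown, since the lists carry no read counts. Among regions with a deposited fold enrichment of 3 to 3.5, the median −log10 p was lowest for AGO2 KD 1 and 2, at 4.11 and 6.49, intermediate for LaminB KD 1 and 2, at 9.87 and 11.6, and highest for mock 1 and 2, at 14.7 and 14.5. A region of equal fold was thus less significant in the AGO2 KD lists. This order of the groups stands beside every comparison below, and its part in them was not tested. In a bulk assay, fewer cells with Pol II on a gene and less Pol II per cell cannot be told apart.

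In mock-treated cells 6 of the 10 genes had a called region in both libraries, beside 51.4% of all protein-coding genes. These were the 5 ubiquitous genes and *betaTub60D*. The other 4, *Act57B*, *Act79B*, *alphaTub85E* and *betaTub85D*, had no region in any of the 6 libraries, as did 45.5% of all genes. In all 6 libraries at least 90% of the span of *Act5C*, *Act42A* and *alphaTub84B* was covered, and coverage of this extent was seen in 2.43% of all genes.

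The classes stood apart in every library. Mean coverage of the ubiquitous genes was 84.7% and 97.5% in mock 1 and 2, 70.2% and 80.2% in AGO2 KD 1 and 2, and 87.0% and 92.9% in LaminB KD 1 and 2. The corresponding means of the restricted genes lay between 0.734% and 2.22%, and came from *betaTub60D* alone. The classes differed by 90.3 ± 9.11 percentage points in the mock group, by 73.8 ± 6.11 upon AGO2 depletion and by 88.4 ± 3.24 upon LaminB depletion (SD, n = 2 libraries each). The AGO2 KD values, 69.5 and 78.2 points, lay below the mock values of 83.9 and 96.7 points, and in the ubiquitous class *alphaTub84D*, *betaTub56D* and *Act5C* were lower while *Act42A* and *alphaTub84B* stayed at 100%. By mean mock coverage the order was *Act42A*, *alphaTub84B* and *betaTub56D* at 100%, then *Act5C*, *alphaTub84D*, *betaTub60D* and the 4 genes at 0. The mock libraries of the neighbours *Act5C*, at 94.5%, and *alphaTub84D*, at 61.2%, did not overlap. Their means differed by less than the SD of 45.4 points between the mock libraries of *alphaTub84D*. The means of *alphaTub84D* and *betaTub60D*, at 4.14%, differed by more than this SD, and their mock libraries did not overlap either.

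**Figure D1:**
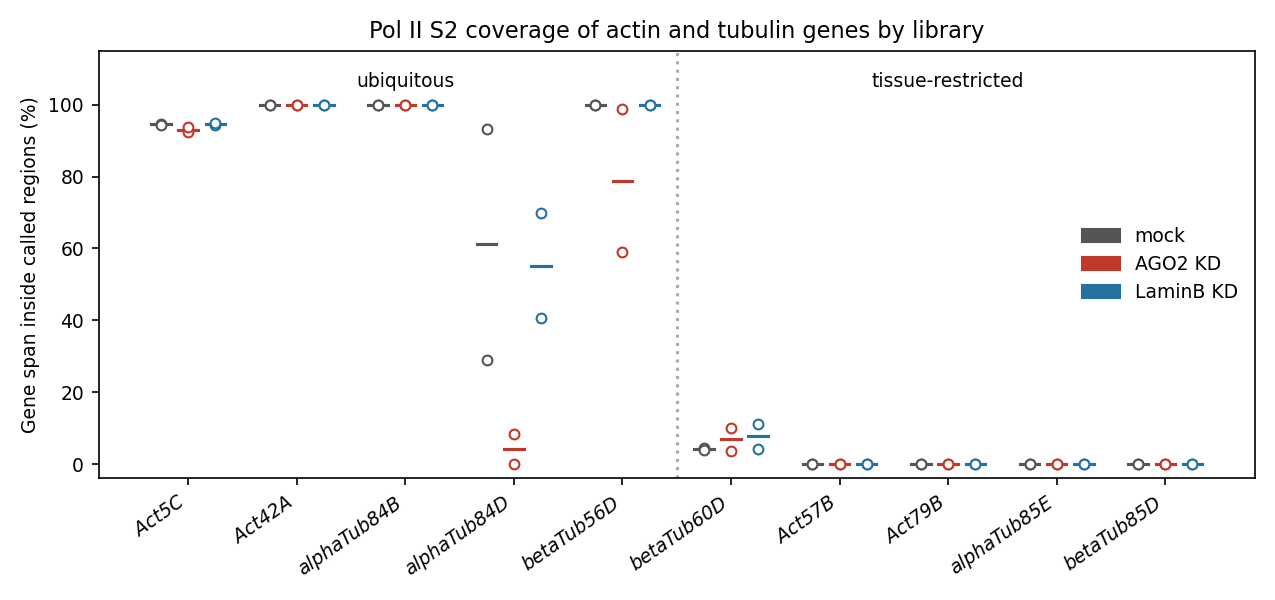
Coverage of each gene in percent (vertical axis) for the 10 genes (horizontal axis), with 1 circle per library and a bar at the mean of the 2 libraries of a group. The ubiquitous genes other than *alphaTub84D* sit at 92.3% or above except for AGO2 KD 1 over *betaTub56D* at 58.9%, *alphaTub84D* ranges from 0 to 93.3%, and of the restricted genes only *betaTub60D* leaves 0, at 3.67% to 11.1%.

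*Act5C* (FBgn0000042), the more widely studied of the cytoplasmic actin genes, spans chrX:5900861-5905399 on the plus strand and overlaps no other annotated gene. Its coverage in mock 1 and 2 was 94.6% and 94.4%, against 92.3% and 93.7% in AGO2 KD 1 and 2 and 94.4% and 94.9% in LaminB KD 1 and 2. All 6 values were high, and the AGO2 KD libraries lay just below the other 4, with a difference from mock of −1.50 points and a pooled SD of 0.701. Each library had a single region over the gene. It covered all 1128 coding bases and all 1561 bases annotated only as intron in every library, so the uncovered part was always the end of the last exon, which is 3′ untranslated.

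The ends of the *Act5C* region were at different places relative to the gene. It began between 1603 and 1621 bp before the gene start in 5 libraries and 219 bp before it in AGO2 KD 1. In those 5 libraries it took in 732 to 750 bp of lncRNA:CR45668, a noncoding RNA gene on the opposite strand, so the upstream part cannot be assigned to *Act5C*. The region stopped between 230 and 349 bp before the most distal annotated end, with AGO2 KD 1 the shortest and AGO2 KD 2, at 286 bp, the next. Of the last 500 bp of the gene the mock libraries had 51.0% and 49.2% covered, the AGO2 KD libraries 30.2% and 42.8%, and the LaminB KD libraries 49.2% and 54.0%. Of its 5 annotated transcripts 2 end beyond the called region in every library, 4366 and 4538 bp after the gene start, and the other 3 end inside it, 3312 to 3927 bp after the start.

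*Act42A* (FBgn0000043), the other cytoplasmic actin gene, spans chr2R:6013910-6015689 on the minus strand. It was covered along 100% of its 1780 bp in all 6 libraries. Its region was also the least variable in size, from 2278 to 2376 bp. It began 71 to 104 bp before the gene start and ran 398 to 521 bp past the gene end, so that, unlike the region of *Act5C*, it extended beyond the annotated 3′ end in each library. AGO2 KD 1 and 2 had 512 and 498 bp past the end, against 448 and 398 bp in mock and 480 and 521 bp in LaminB KD, and the AGO2 KD values lay above both mock values and among those of LaminB KD.

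*alphaTub84B* (FBgn0003884), the gene of the main alpha-tubulin, spans chr3R:7086599-7088839 on the plus strand and was covered along 100% of its 2241 bp in all libraries. Coverage of the gene could go no higher, so the extent of the region around it tells more. The region measured 8416 and 8388 bp in the mock libraries, 3496 and 5297 bp upon AGO2 depletion, and 7559 and 8386 bp upon LaminB depletion. Both AGO2 KD libraries had narrower regions than the other 4, and this held on the upstream and the downstream side. It began 4429 and 4439 bp before the gene start in mock and 4378 and 4383 bp in LaminB KD, but 879 and 2166 bp before it in AGO2 KD. Past the gene end it ran for 1746 and 1708 bp in mock, 940 and 1762 bp in LaminB KD, and 376 and 890 bp in AGO2 KD.

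The wide region of *alphaTub84B* was not its own alone. In mock and LaminB KD it held the whole 2859 bp of *Tailor*, a divergent gene for an RNA uridylyltransferase, together with the noncoding asRNA:CR45907 and between 1031 and 1070 bp of *Dpck*, a gene for an enzyme of coenzyme A synthesis. In AGO2 KD it held 364 and 1651 bp of *Tailor* and did not reach *Dpck*. Which gene the Pol II in the shared stretches belongs to cannot be told from the lists.

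*alphaTub84D* (FBgn0003885), which encodes a nearly identical alpha-tubulin, spans chr3R:7530753-7532732 on the plus strand and has a single exon of 1980 bp. It varied more than any of the other 9 genes. Mock 1 had 29.0% and mock 2 had 93.3% of the gene covered, AGO2 KD 1 had 0 and AGO2 KD 2 had 8.43%, and LaminB KD 1 had 40.5% and LaminB KD 2 had 69.8%. The AGO2 KD libraries were the lowest, and the LaminB KD values lay between those of mock. The mock mean was 61.2% ± 45.4, the AGO2 KD mean 4.22% ± 5.96 and the LaminB KD mean 55.2% ± 20.7 (SD, n = 2 libraries per group).

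The region of *alphaTub84D* began within 65 bp of the gene start wherever it was called, and it was the far end that moved. The end lay 574 and 1846 bp after the gene start in mock, 181 bp in AGO2 KD 2, and 801 and 1381 bp in LaminB KD. The coding sequence begins 506 bp after the start, so the AGO2 KD 2 region lay in the 5′ untranslated part and covered no coding base. Of the 1350 coding bases 5.11% and 99.3% were covered in mock and 21.9% and 64.9% in LaminB KD. No library reached the annotated gene end.

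Near-identical coding sequence can remove reads, because the authors discarded reads that align to several places. Among pairs of the 10 genes *alphaTub84B* and *alphaTub84D* shared the longest run, 126 bases that were the same letter for letter (coding bases 385 to 510, at chr3R:7087615-7087740 and chr3R:7531643-7531768). Over all coding bases the pair was 92.2% identical, and 2 of 450 residues of the translated products differed. The run is printed with the matching stretch of *alphaTub85E* (chr3R:9732297-9732422, minus strand), in which capitals mark the 19 bases that differ. For contrast the first 90 coding bases of *Act5C* (chrX:5902698-5902787) and *Act79B* (chr3L:21985351-21985440, both on the plus strand) are shown with capitals at the 11 bases at which they differ. All are from the RefSeq Release 6 (dm6) genome and run 5′ to 3′ on the strand of the gene.
alphaTub84B and alphaTub84D: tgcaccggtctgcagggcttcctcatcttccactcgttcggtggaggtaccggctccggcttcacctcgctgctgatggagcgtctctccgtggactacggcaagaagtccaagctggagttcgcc
alphaTub85E: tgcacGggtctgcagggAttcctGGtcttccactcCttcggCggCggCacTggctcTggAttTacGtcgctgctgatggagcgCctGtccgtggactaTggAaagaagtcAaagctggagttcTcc
Act5C: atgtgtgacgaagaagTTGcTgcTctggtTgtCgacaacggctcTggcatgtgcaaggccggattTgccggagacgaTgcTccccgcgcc
Act79B: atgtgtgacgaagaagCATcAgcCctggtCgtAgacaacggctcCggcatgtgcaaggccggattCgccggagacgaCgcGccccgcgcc

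To see how much of each gene a short read could miss, every 50-base window, the read length of the study, was aligned back to the genome with up to 3 mismatches. A window counted as unique at a mapping quality of 20 or more. Unique windows made up 95.9% of *alphaTub84D*, 96.4% of *alphaTub84B*, 98.8% of *Act5C*, 99.4% of *Act57B* and 99.6% or more of the other 6, and in 13652 protein-coding genes, sampled at a window every 100 bases and kept with at least 5 windows, the median was 100% and 6.16% were under 90%. In *alphaTub84D* and *alphaTub84B* 79 windows each had an equal second hit, and in all 10 genes every noncoding window was unique. The 4 genes without a region were between 99.4% and 100% unique. The shared run lies 890 to 1015 bp after the start of *alphaTub84D*. The regions of mock 1, LaminB KD 1 and AGO2 KD 2 ended before it, and those of mock 2 and LaminB KD 2 passed through it. Whether the shared run bears on those ends was not tested.

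*betaTub56D* (FBgn0284243), the gene of the general beta-tubulin, spans chr2R:19447319-19451600 on the minus strand. Its coverage was 100% in both mock and both LaminB KD libraries, 58.9% in AGO2 KD 1 and 98.7% in AGO2 KD 2. The AGO2 KD libraries were the lowest, but they lay further from each other than AGO2 KD 2 lay from mock, with a mean of 78.8% ± 28.2 (SD, n = 2). A single region of 4389 to 4609 bp was called in 5 libraries. In AGO2 KD 1 the gene had a region of 2361 bp from 112 bp before to 2248 bp after the gene start, and a second of 272 bp, from 3825 to 4096 bp after it, inside the coding part of the last exon. The first of these ends after the second annotated start site, 2001 bp into the gene. Coding bases were covered to 27.2% in AGO2 KD 1 and to 100% in each of the other 5 libraries.

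*betaTub60D* (FBgn0288686), the ecdysone-responsive gene, spans chr2R:24305881-24313099 on the plus strand and was the only restricted gene with a region. Mock coverage stood at 4.34% and 3.95%, AGO2 KD coverage at 3.67% and 10.1%, and LaminB KD coverage at 4.22% and 11.1%. The values were low in every library and the groups overlapped. The study shows *betaTub60D* as an example of a gene up-regulated upon AGO2 depletion. Coverage by called regions does not measure RNA, so the 2 readings are unlike. By a read-based test the study also reports gains of Pol II S2 at part of its up-regulated genes. Regions are thresholded in each library, so coverage is unlike that measure too, here and in the comparisons below. In all 6 libraries a region of 467 to 911 bp lay across the gene start, from at most 258 bp before it to between 264 and 652 bp after it. Pol II S2 was thus called over the promoter and the first exon, while no library had more than 11.1% of the gene covered. In the libraries with 10.1% and 11.1% a separate small region added to the value. In LaminB KD 2 the start region was also longer, with 653 bp inside the gene against 265 to 350 bp in the other libraries. AGO2 KD 2 had a second region of 379 bp that lay 6244 to 6622 bp after the start in the last exon, with 20 coding and 359 untranslated bases and a fold enrichment of 3.45. LaminB KD 2 had one of 149 bp in the first intron, 1277 to 1425 bp after the start, with a fold of 2.28. Neither was found in the other library of its group.

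**Figure D2:**
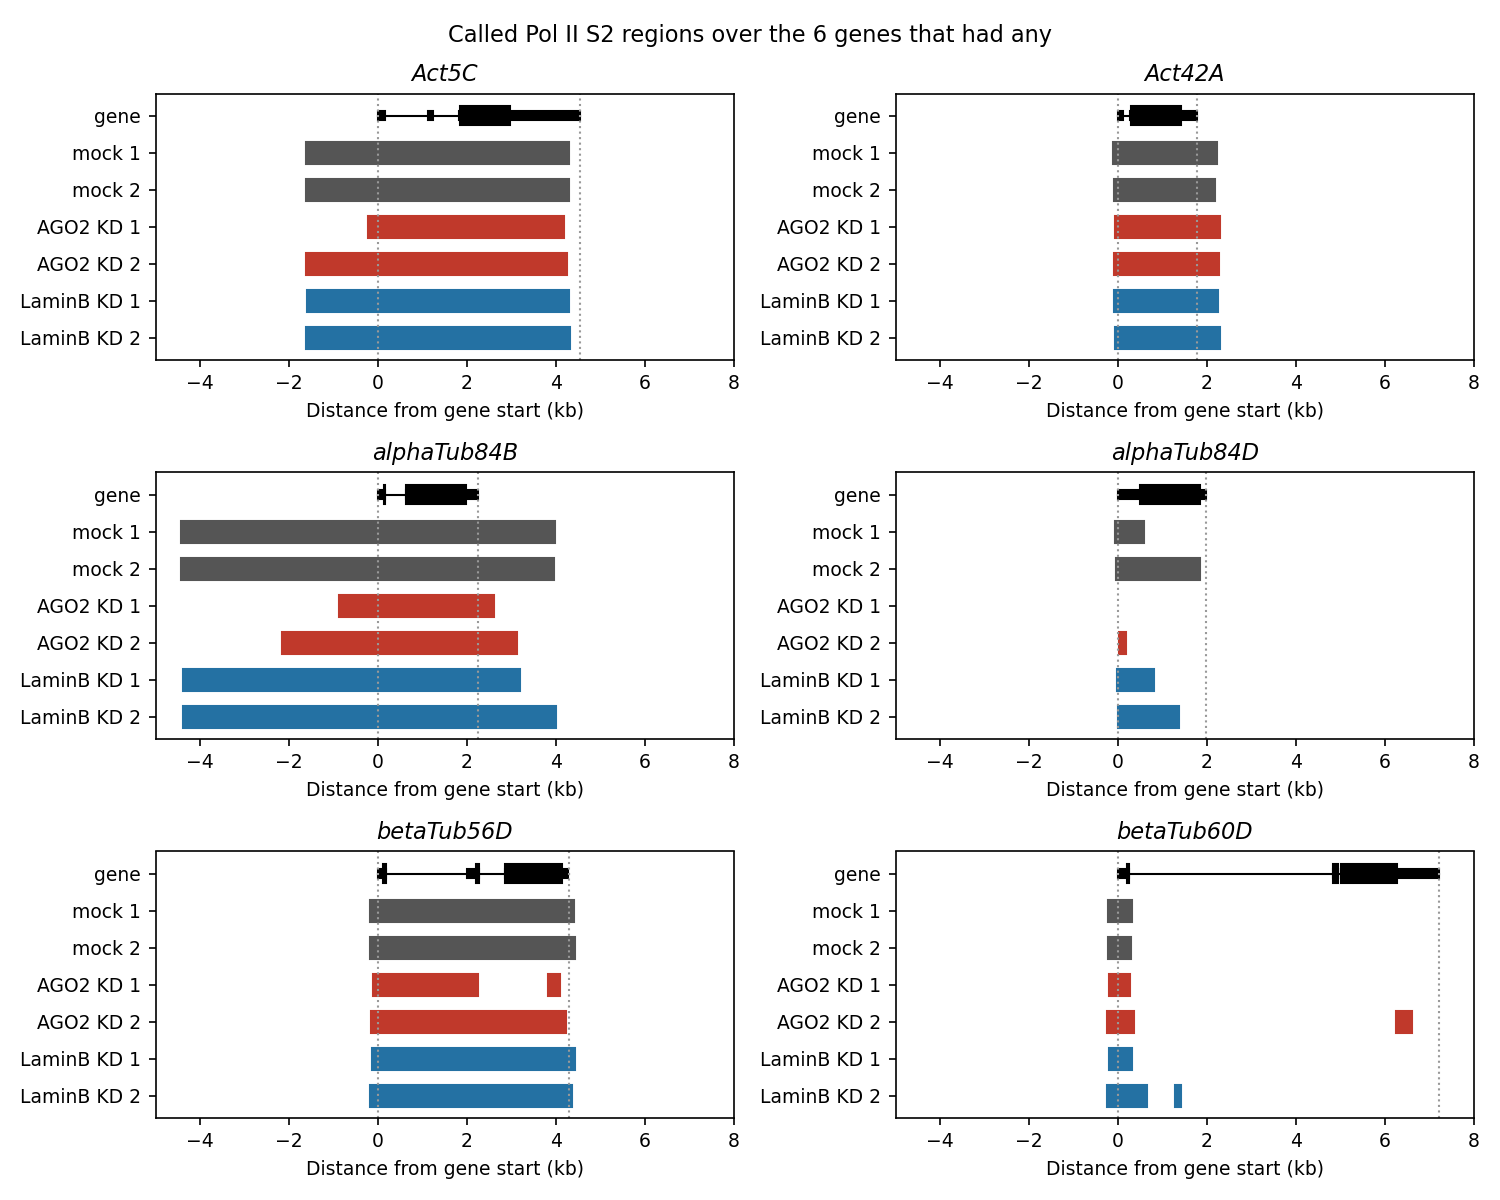
Called regions (coloured bars, 1 line per library) over the 6 genes that had any, against distance from the gene start in kb (horizontal axis), with gene models on top (thick, coding; medium, noncoding exon; line, intron) and dotted lines at gene start and end. The *alphaTub84B* region narrows from 8416 bp in mock 1 to 3496 bp in AGO2 KD 1, and the *alphaTub84D* region differs in length in every library that has it. The *betaTub60D* region stays at the start, with a small separate region in AGO2 KD 2 and in LaminB KD 2.

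The 4 genes with no region differed in how close the nearest call was. *Act57B* (FBgn0000044, chr2R:20944021-20946431, plus strand) and *Act79B* (FBgn0000045, chr3L:21985210-21987190, plus strand) lay in wide uncalled stretches. The nearest region to *Act57B* was 30524 bp downstream or further in each library, and 48452 bp in AGO2 KD 1. The nearest to *Act79B* was between 29772 and 29904 bp upstream, over *CG7458*, in all 6 libraries. *alphaTub85E* (FBgn0003886, chr3R:9731221-9733250, minus strand) had its nearest region 5471 to 5524 bp downstream, over *hyd*, a ubiquitin ligase gene.

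*betaTub85D* (FBgn0003889, chr3R:9408383-9410282, minus strand) had a called region much nearer. It lay 267 and 306 bp downstream of the gene in the mock libraries, against 7016 and 3333 bp for AGO2 KD and 3319 and 1397 bp for LaminB KD. The mock regions were weak, with a fold enrichment of 1.96 in each, and lay over *CG44261*, *CG8135* and *BBIP1*. They did not enter the gene. When the gene was extended by 500 bp at both ends, these regions alone gave *betaTub85D* a difference from mock of −7.40 points in each knockdown.

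The effect of AGO2 depletion was asked by comparing the 2 AGO2 KD with the 2 mock libraries. Coverage was lower in both AGO2 KD libraries than in both mock libraries in 3 of the 10 genes, *Act5C*, *alphaTub84D* and *betaTub56D*, and higher in 0. Over all 13968 genes 41.5% were lower and 0.0286% were higher by the same criterion, so the count among the 10 was not above the background. Only a gene with a region in both mock libraries can be lower by this criterion. Of the 7174 such genes 80.9% were lower in AGO2 KD, beside 3 of the 6 actin and tubulin genes, and 40.5% were lower in LaminB KD. The differences were −1.50 points for *Act5C*, −56.9 for *alphaTub84D* with a pooled SD of 32.4, and −21.2 for *betaTub56D* with a pooled SD of 19.9 (two-sided exact permutation test, p = 0.333 in all 3, the smallest p that 2 against 2 libraries allow). The size of the last rested on AGO2 KD 1, since without it the difference was −1.28 points, and without AGO2 KD 2 it was −41.1. That of *alphaTub84D* was −89.1 points without mock 1 and −24.8 without mock 2. With only the top-scoring 50% of each list it was −14.5 points, and *alphaTub84D* then had a region in mock 1 only. That of *Act5C* was −0.804 points without AGO2 KD 1. *Act42A* and *alphaTub84B*, at 100% throughout, and the 4 genes at 0 had no difference. *betaTub60D* was 2.74 points above mock with a pooled SD of 3.22 and overlapping groups (two-sided exact permutation test, p = 1), and without AGO2 KD 2 the sign turned, to −0.471 points, while without AGO2 KD 1 it was 5.96 points above.

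Among the genes with a region in any library, the median change upon depletion of AGO2 was −0.749 points over the 6 actin and tubulin genes and −22.3 points over all 7611. For LaminB KD against mock the medians were 0 and −1.89 points, and for AGO2 KD against LaminB KD −1.22 and −14.1 points. The 6 genes include 2 that were at the ceiling of 100% in all libraries and 1 that was near it.

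LaminB depletion was compared in the same way. None of the 10 genes was lower (0 of 10, background 20.8%) and none was higher (0 of 10, background 2.03%) in both LaminB KD than in both mock libraries. The LaminB KD mean of *alphaTub84D* was 6.01 points below mock with a pooled SD of 35.3 (exact permutation test, two-sided p = 1), and the sign turned when mock 2 was left out, to 26.1 points above. *betaTub60D* was 3.53 points above mock with a pooled SD of 3.45 (exact permutation test, two-sided p = 0.667), which came from LaminB KD 2. Without LaminB KD 2 the difference was 0.0831 points.

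Set directly against each other, AGO2 KD was below LaminB KD in 3 of 10 genes, beside 34.4% of all genes, and above it in 0, beside 0.0716%. The 3 were again *Act5C*, *alphaTub84D* and *betaTub56D*, at −1.66, −50.9 and −21.2 points (two-sided exact permutation test, p = 0.333 in all 3). Without AGO2 KD 1 the difference was −0.969 points for *Act5C* and −1.28 points for *betaTub56D*, and without AGO2 KD 2 it was −41.1 for the latter. This comparison and that with mock use the same AGO2 KD libraries. With the top-scoring 50% of each list the difference of *alphaTub84D* was 0.

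Fold enrichment and significance did not move alike. The fold enrichment, the deposited ratio of IP to the input background averaged over a region, was 4.49 and 4.70 for *Act5C* in the mock libraries, 4.25 and 3.88 upon AGO2 depletion, and 5.06 and 4.69 upon LaminB depletion. The −log10 q of the same regions was 38.6 and 42.9, 6.04 and 12.8, and 33.8 and 37.0. Both AGO2 KD values were below both mock values on either measure, but the drop in −log10 q was far steeper. For *betaTub56D* the mock folds were 4.22 and 4.17, the AGO2 KD folds 4.31 and 4.33, and the LaminB KD folds 4.53 and 4.42. There the AGO2 KD values were above mock, while −log10 q went from 27.3 and 27.7 in mock to 5.00 and 11.5.

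*Act42A*, whose region barely changed in extent, had mock folds of 4.10 and 4.25, AGO2 KD folds of 3.81 and 3.39, and LaminB KD folds of 4.10 and 3.94. Its −log10 q was 27.0 and 29.0 in mock, 3.55 and 7.41 upon AGO2 depletion, and 18.7 and 20.0 upon LaminB depletion. Both measures were lowest in AGO2 KD. *alphaTub84B* had mock folds of 3.75 and 4.00, AGO2 KD folds of 3.47 and 3.85 and LaminB KD folds of 4.29 and 4.16, and here AGO2 KD and mock overlapped. The promoter region of *betaTub60D* had mock folds of 3.78 and 4.06, AGO2 KD folds of 3.36 and 4.63 and LaminB KD folds of 3.97 and 4.64, which also overlapped. In each library in which it had a region, *alphaTub84D* had the lowest −log10 q among the start regions of the 6 genes, with 8.41 and 4.84 in mock, 2.71 in AGO2 KD 2, and 3.70 and 4.27 upon LaminB depletion. Since regions differ in extent, these averages are not over the same bases in each library.

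**Figure D3:**
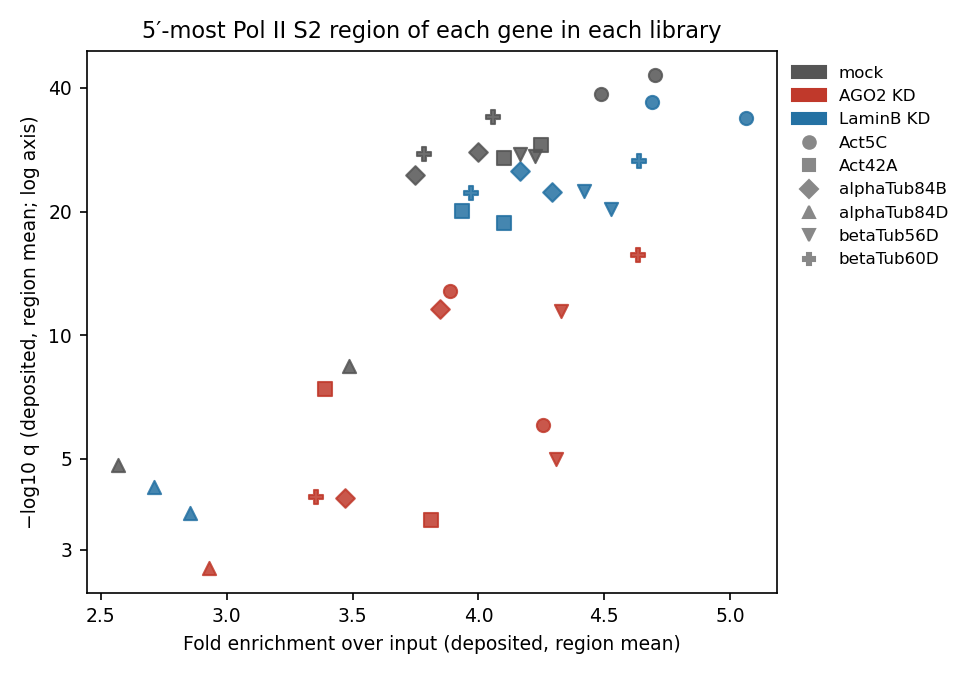
Deposited −log10 q (vertical, log axis) against deposited fold enrichment (horizontal axis) of the region nearest the gene start, 1 point per gene and library, coloured by group and shaped by gene. The AGO2 KD points lie low, between 2.71 and 15.7 in −log10 q, while their folds, 2.93 to 4.63, spread through those of the other groups.

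Within its own list the *Act5C* region ranked high by fold in mock and LaminB KD, where 3.95% to 4.87% of regions had a higher fold, and lower in AGO2 KD, where 21.1% and 17.4% did. By width it ranked high everywhere, and 0.752% to 4.62% of regions were wider. The *alphaTub84B* region was also among the widest, with 0.927% to 1.69% of regions wider. *Act42A* had 23.7% and 22.9% of regions wider than its own in mock and 4.68% and 11.8% in AGO2 KD. Its width was nearly constant, while the median region width was 906 and 862 bp in mock 1 and 2 and 438.5 and 667 bp in AGO2 KD 1 and 2.

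Genes that work with actin and tubulin were read in the same way. Of the 6 other actin and tubulin genes 3 had a region in both mock libraries, beside 51.4% of all genes. The third of these was *betaTub97EF*, which was named after its values were seen. *gammaTub23C*, the gamma-tubulin gene of somatic cells, had a mean mock coverage of 78.4%, and *alphaTub67C*, the maternal alpha-tubulin gene, 14.8%, while the muscle actin genes *Act87E* and *Act88F* were at 0. These 3 were lower in AGO2 KD and lower in LaminB KD than in mock, beside the 80.9% and 40.5% of all genes with a region in both mock libraries. The 8 subunits of TRiC, the chaperonin that folds actin and tubulin, were all covered to 100% in both mock libraries. Of these, 4 had at least 90% in all 6 libraries (*CCT3*, *CCT5*, *CCT6* and *CCT8*), beside 2.43% of all genes. In AGO2 KD 2 were lower than in mock (*CCT2* and *CCT4*) and in LaminB KD 1 was, beside the same 80.9% and 40.5%. All of these genes but *CCT2* were named after their values were seen. *CCT1* had 74.4% and 100% in AGO2 KD, and *CCT2* 86.8% and 88.4%.

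Actin assembly genes had intermediate values. Of 25, 24 had a region in both mock libraries, beside 51.4% of all genes. The median mock coverage of the 25 was 57.1%, 22 were lower in AGO2 KD than in mock and 14 were lower in LaminB KD. Only the 24 genes with a region in both mock libraries can be lower than mock. The 22 and 14 of these 24 therefore stand beside 80.9% and 40.5% of all such genes. Counts of genes lower than mock in the lists that follow are read the same way. *Arpc1* and *Arpc4*, subunits of the Arp2/3 complex that nucleates branched filaments, were covered to 100% in mock and to 19.5% and 89.9%, and 93.1% and 98.3%, in AGO2 KD. At the other end *Fim*, for the filament bundler fimbrin, had 1.57% in mock and *Arpc3B* had none. Of 15 matched genes for tubulin folding and microtubule factors, 13 had a region in both mock libraries, beside 51.4% of all genes. The median mock coverage of the 15 was 18.6%. Of these 13, 12 were lower in AGO2 KD and 8 were lower in LaminB KD than in mock. Of the 15, 1 was higher in LaminB KD than in mock, beside 2.03% of all genes. The higher gene was *Tbcd*, a tubulin folding cofactor gene named after its values were seen. It had 17.2% and 19.9% in mock and 32.7% and 29.8% in LaminB KD. *Tbcb*, a tubulin folding cofactor, had 100% and *chb*, the fly CLASP, 67.8% in mock, whereas *tau* had 1.38% and *futsch*, both microtubule-associated protein genes known from neurons, had none. Median mock coverage over all protein-coding genes was 2.21%.

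Markers of cell types were read in the same way. Over all genes 45.5% had no region in any library and 51.4% had one in both mock libraries. Of 16 muscle genes 13 had no region in any library and 2 had one in both mock libraries, *Mlc2* at 5.30% and *Mef2* at 3.66%, and *Mhc* and *Mlc1* were at 0. Of 20 testis genes 15 had none and 2 had a region in both mock libraries (*mia* and *topi*, named after their values were seen). *Mst98Cb* had 37.8% and *Mst98Ca* 26.9% as means of the mock libraries, each from a single mock library, and *Mst84Da* and *Mst84Db* were at 0. Of 14 hemocyte genes 9 had a region in both mock libraries and 5 had none in any library, beside the same 51.4% and 45.5%. *Hml* at 74.5% and *srp* at 64.5% led the list, whereas *He* and *NimC1* were at 0. The 9 with a region were lower in AGO2 KD than in mock and 6 were lower in LaminB KD, beside the same 80.9% and 40.5%. Of the 14, 7 were lower in AGO2 KD than in LaminB KD, beside 34.4% of all genes. Only a gene with a region in both LaminB KD libraries can be lower in this way. The 34.4% includes genes without one, so it is not a like share for this list. The median mock coverage of the hemocyte list was 3.25%, beside 2.21% over all protein-coding genes. These counts are therefore not read as bearing on the stated hemocyte origin. In the muscle list 2 and in the testis list 2 were lower in AGO2 KD, with 1 in each lower in LaminB KD.

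**Figure D4:**
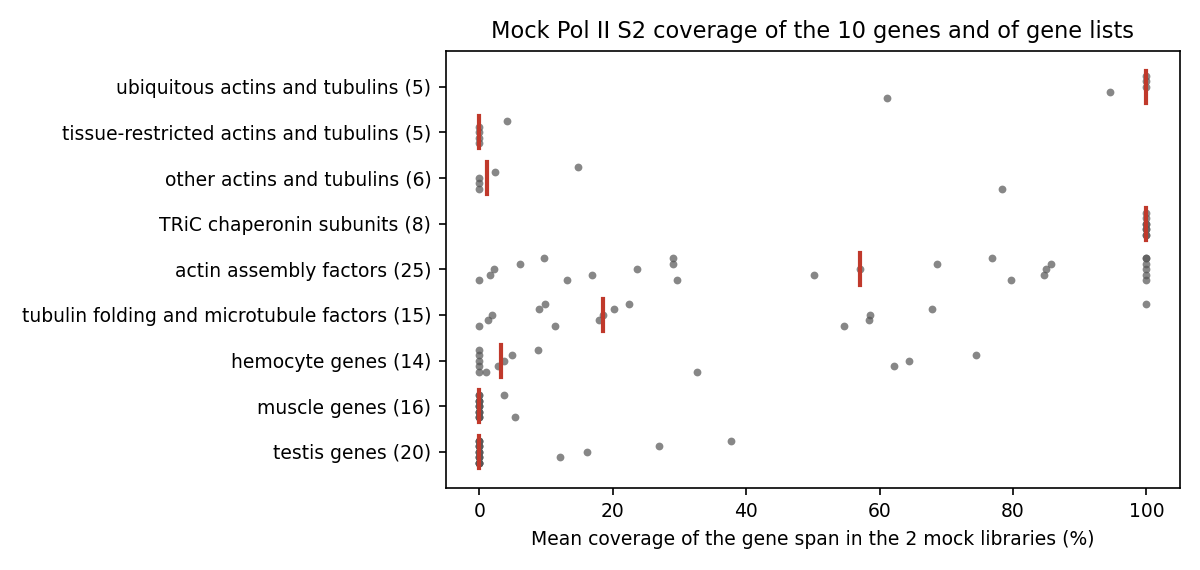
Mean coverage in the 2 mock libraries in percent (horizontal axis) of every gene (points) in the 10 actin and tubulin genes and in 7 gene lists, with the number of genes in brackets and a red bar at the median. The ubiquitous genes and the TRiC subunits have medians of 100%, the actin assembly list 57.1%, and the muscle and testis lists 0.

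Coverage varied by 10 points or more over the 6 libraries in *alphaTub84D* and *betaTub56D* only. The genes outside both families with the most similar 6 values, by Euclidean distance over the libraries, were *S2P* at 16.2 points, *CG12081* at 17.9 and *Nelf-A* at 19.0 for *alphaTub84D*. For *S2P*, mock coverage was 32.8% and 98.2%, AGO2 KD coverage 0 and 9.45%, and LaminB KD coverage 28.0% and 61.6%. For *betaTub56D* they were *CG11523* at 0.815, *CG42359* at 1.31 and *RpL28*, a ribosomal protein gene, at 1.36. All 3 of these were at 100% in mock and LaminB KD and at 58.1% to 59.3% in AGO2 KD 1. Since these genes were picked for similar values in the 6 libraries, the likenesses follow from the choice and are no separate evidence.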

How the data were processed

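Pol II S2 ChIP-seq of 6 IP libraries was analysed. The authors trimmed reads (cutadapt 1.10), aligned them to dm6 (Bowtie2), removed multimapping reads and duplicates (Picard 2.11.0) and called broad regions per replicate against input with MACS2 2.1.1.20160309. These versions are those of the submitters' processing notes, and the study's methods name other versions of cutadapt and Picard. Which of the 6 inputs entered each call is not given in the sources used here, and inputs were not analysed. The deposited score (used to rank regions), fold enrichment (a ratio to the input background), −log10 p and −log10 q are means over a region. The lists hold called regions without read counts, so depth is unknown, no counting interval can be given and a read-based test was not run. The knockdowns act on mRNA, so the lists do not check the labels.

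Coverage was computed on the Ensembl release 115 gene models (annotation 6.54) with Python 3.11.15, numpy 2.4.6 and scipy 1.17.1, tested on simulated data, and drawn with matplotlib 3.10.9. Groups were compared by non-overlap and by the exact two-sided permutation test, which measures only the spread between these libraries. Windows were aligned with bwa 0.7.19, and coding sequences were translated with Biopython 1.88 on the RefSeq genome. Genes and lists were chosen with earlier results of these data known. All 10 genes were named, with the 2 highest and 2 lowest of each list by mean mock coverage (ties by symbol) and the 3 most similar genes. In the tubulin list 15 of 16 symbols matched. Alternatives were stricter or equal-sized lists, other gene models, margins on the gap, medians, left-out libraries and the replicate block.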

Additional observations from a re-analysis of the deposited data

How the results depend on the processing

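The lists are short of depth information, regions are thresholded, and 2 libraries per group cannot reach p below 0.333, so no count here is a test. Of 330 differences of single genes under the alternatives, 310 moved by less than the spread between replicates and 0 turned a called direction. *Act42A* and *alphaTub84B*, at 100% in all libraries, and the 4 genes without a region could hardly move under most settings. The count of 310 therefore says little about how stable the other differences are. The counts of genes lower in AGO2 KD than in mock fell from 3 to 1 with a gap of at least 10 points and to 0 with at least 25, and those against LaminB KD fell from 3 to 1 and 1. Both counts were 2 with the top-scoring 50% or with lists of equal length, where *alphaTub84D* was no longer lower. With genes extended by 500 bp, 4 genes were lower in AGO2 KD than in mock, and 1 gene was higher in AGO2 KD, 2 were lower and 1 was higher in LaminB KD than in mock, the last 3 counts each being 0 without the extension. Leaving out a library in turn gave 3 to 4 genes lower and 0 to 1 higher in AGO2 KD than in mock, 0 to 1 lower and 0 to 2 higher in LaminB KD than in mock, and 3 to 4 lower and 0 higher in AGO2 KD than in LaminB KD. The single higher gene without AGO2 KD 1 was *betaTub60D*. Shares over all genes are given for the main setting only, so these counts have no background beside them. With 1 library left in a group, non-overlap is also easier to reach.

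The difference between classes in mock was 81.0 points when each list was cut to its top-scoring 50% or all were cut to equal length, 77.0 with extended genes and 100 by medians, and 83.9 to 96.7 with a library left out. In AGO2 KD it was 65.2 with extended genes, 95.5 by medians and 80 as the share of genes at least 50% covered, and 69.5 to 78.2 with a library left out. In LaminB KD it was 77.6, 77.6, 77.0 and 100 under the settings named for mock, and 86.1 to 90.7 with a library left out. The causes were not tested.

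Replicate numbers are shared between groups. Over 7611 genes the deviations of same-numbered libraries from their group means correlated at −0.0319 (mock and AGO2 KD), 0.0572 (mock and LaminB KD) and −0.0392 (AGO2 KD and LaminB KD). Coverage thus gave no sign of pairing by number. Whether same-numbered libraries were handled together cannot be told from these values. With the replicate block 3 genes were lower in AGO2 KD than in mock in both pairs, 0 in LaminB KD than in mock, and 4 in AGO2 KD than in LaminB KD.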
